A study of Mus musculus with 8 samples.

Results

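CpG-dense windows of intermediate methylation are 1000 bp stretches of the mouse genome that hold many measured CpG dinucleotides and are neither free of methylation nor fully methylated. They were chosen on chromosomes 1 to 19 by 2 criteria: at least 20 CpG positions with 10 or more reads in every library, and a median methylation level over those positions of 30 to 70% in the sham library of the ischemia model. The rule found 150 windows. These were 150 of 11280 CpG-dense windows, of which 10944 lay below 30% and 186 above 70%, and of 93730 windows with at least 3 positions. Because the ischemia sham chose the windows, its levels and any difference from it are given as a description, without a test.

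The assay was RRBS, reduced representation bisulfite sequencing. DNA is cut at CCGG by the enzyme MspI, short fragments are treated with bisulfite, and unmethylated cytosines are then read as thymine. All 8 libraries, in 6 groups, came from wild-type male C57BL/6J mice, from kidney cortex and outer medulla, and no age is given in the labels. Unilateral ureter obstruction (UUO, ligation and cutting of the left ureter) was sampled at 7 days in 2 libraries, and UUO with 5AZA, an inhibitor of DNA methylation injected into the abdomen in saline at 1 mg per kg per day, in 2 more. The labels do not say whether UUO mice without 5AZA were injected with saline. After clamping of both renal pedicles for 25 minutes, reperfused kidneys were taken at 1 week (1 library) and at 1 month (1 library). Each surgery had its own sham operation, with 1 library each, so 4 of the 6 groups have no replicate. Whole tissue was used, so a change in the level within cells and a change in the mix of cells cannot be told apart. A read was counted at each CpG position it covered. Counted so, the libraries held 57853745 to 86411736 reads over CpG positions. Each of the 150 windows had 367 to 11613 reads per library, with a median of 1515.5. The exact (Clopper-Pearson) 95% binomial interval of a window in a single library was 1.71 to 8.69 points wide, with a median of 4.75. It covers counting error only and treats counts at different positions as independent. Where reads cover several positions, the interval can be too narrow.

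Most CpG-dense stretches of mammalian genomes are CpG islands, which often lie at promoters and are kept free of methylation, whereas most CpG dinucleotides elsewhere are methylated. An intermediate average can arise when some DNA copies are methylated and others are not, as at imprinted loci, where the copy from 1 parent carries the methylation and the other does not. It can also arise when methylated and unmethylated CpG positions lie side by side in a window. The first kind gives positions that are each intermediate, and the second gives a mixture of high and low positions, so the levels of single positions were examined before the windows were compared between groups.

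The promoters below are shown because they lie in windows of the set and because the results on evenness and on 5AZA return to them. Each is the 250 bases before the RefSeq start site (GRCm38.p6 sequence), and capitals mark the CG dinucleotides measured in all 8 libraries. The sequences were placed in the mm9 coordinates of the deposited data by the spacing of their CG dinucleotides. Mcts2, a retrogene expressed from the paternal copy, was placed at chr2:152512634-152512883 on the plus strand with 13 measured CG. Plagl1, a paternally expressed zinc finger gene, was placed at chr10:12810388-12810637 on the plus strand with 14. Commd1, whose intron hosts the imprinted gene Zrsr1, was placed at chr11:22872867-22873116 on the minus strand with 11, and Gm13205, a predicted gene, at chr4:148326432-148326681 on the minus strand with 18. These counts of CG cover the whole 300-base entry, which runs 50 bases past the start site.
Mcts2: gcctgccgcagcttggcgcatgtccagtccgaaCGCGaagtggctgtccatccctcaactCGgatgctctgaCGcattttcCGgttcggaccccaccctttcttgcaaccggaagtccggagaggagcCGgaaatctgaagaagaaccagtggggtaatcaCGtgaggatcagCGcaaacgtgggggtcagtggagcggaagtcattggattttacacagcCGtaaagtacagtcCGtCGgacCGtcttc
Plagl1: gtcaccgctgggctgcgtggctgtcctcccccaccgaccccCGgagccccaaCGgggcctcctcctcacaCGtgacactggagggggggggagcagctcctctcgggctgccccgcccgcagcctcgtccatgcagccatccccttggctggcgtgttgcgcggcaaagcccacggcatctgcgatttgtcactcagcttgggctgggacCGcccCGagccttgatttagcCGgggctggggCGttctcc
Commd1: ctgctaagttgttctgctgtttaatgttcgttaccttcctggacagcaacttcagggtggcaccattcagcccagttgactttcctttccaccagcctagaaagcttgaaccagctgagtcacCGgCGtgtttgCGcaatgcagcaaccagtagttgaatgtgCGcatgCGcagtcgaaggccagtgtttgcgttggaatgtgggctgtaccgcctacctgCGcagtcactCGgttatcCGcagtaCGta
Gm13205: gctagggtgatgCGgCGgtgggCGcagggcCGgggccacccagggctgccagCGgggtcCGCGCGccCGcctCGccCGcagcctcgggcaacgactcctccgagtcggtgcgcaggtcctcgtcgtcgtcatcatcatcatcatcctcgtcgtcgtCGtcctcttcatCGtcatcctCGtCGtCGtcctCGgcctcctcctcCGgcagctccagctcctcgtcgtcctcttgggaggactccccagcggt

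The 150 windows held 4313 CpG positions, 20 to 93 per window with a median of 24. In the UUO sham, which was not used to choose them, 46.4% of these positions were themselves at 30 to 70%, 21.8% lay below 30% and 31.8% above 70%. High positions were found at MspI cut sites. Per the labels' protocols, fragment ends were filled in with methylated dCTP, which reads as methylated whatever the genome holds. Over all promoters that could be placed, CG inside CCGG averaged 69.5 to 74.1% in the 8 libraries and other CG 1.41 to 2.68%. In the placed promoters inside the 150 windows, 31 CG inside CCGG averaged 83.5 to 88.5% and 143 other CG 37.1 to 47.2%. A position was therefore called interior when a measured CpG lay within 250 bp on either side and the read depth changed by at most 10% to each, and a fragment edge otherwise. The 2018 interior positions of the 150 windows averaged 44.63% in the UUO sham and 56.2% of them were at 30 to 70%. The 2295 edge positions averaged 61.13%, with 37.7% at 30 to 70% and 46.3% above 70%.

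Over interior positions alone, 105 of 149 windows with at least 3 such positions kept a median of 30 to 70% in the ischemia sham, and 108 of 149 in the UUO sham. In the UUO sham, 4 windows had an interior median below 10%, 34 had 10 to 30% and 3 had 70 to 90%. The label therefore holds for most windows without the fragment edges, and 38 of 149 were low inside their fragments. The CpG-dense windows below 30% were of another make-up, with 96.3% of their 237813 interior positions below 10% in the UUO sham, and of those above 70% 57.4% of 2033 interior positions were at 90% or more.

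**Figure D1:**
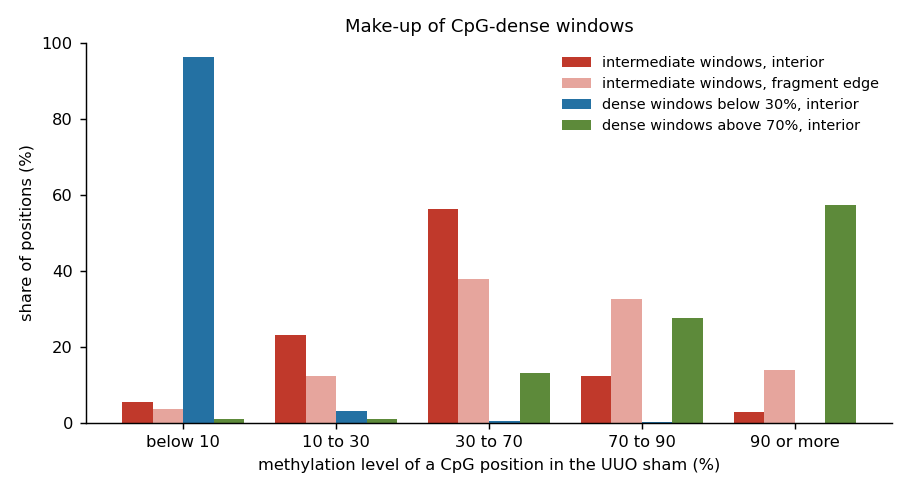
Share of CpG positions (%) at each methylation level in the UUO sham library, for interior and fragment-edge positions of the 150 intermediate windows and for interior positions of the CpG-dense windows below 30% and above 70%. In the intermediate windows 56.2% of interior positions fall at 30 to 70%, against 0.5% in the dense windows below 30% and 13.2% in those above 70%.

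How even a window was inside differed widely. The SD between the interior positions of a window, in the UUO sham, ranged from 3.07 to 43.47 points with a median of 16.25. The 4 windows with the largest share of positions at 30 to 70% in the UUO sham were the Mcts2 window on chromosome 2 (152512001 to 152513000, 81.0% of 21 positions), a window on chromosome 2 (174110001 to 174111000, 80.0% of 20) that lay 45205 bp upstream of the start of Gnas, a window on chromosome 11 (11926001 to 11927000, 80.0% of 30) that lay 11113 bp downstream of the start of Grb10, and a window on chromosome 2 (37649001 to 37650000, 76.5% of 34) with no placed start within 50000 bp. In the first 3, every interior position was at 30 to 70%. Gnas encodes the stimulatory G protein alpha subunit at a locus with several imprinted promoters upstream of its main start, and Grb10 encodes an imprinted adaptor protein that dampens insulin receptor signalling. Mcts2, Gnas and Grb10 all stand on a list of 21 imprinted genes and control regions that was chosen with earlier results of these data known.

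Of the 21 listed genes, 5 had a promoter that could be placed: Igf2r, Plagl1, Grb10, Gnas and Mcts2. Windows of the set lay within 50000 bp of the start of 4 of them, with 5 windows at Gnas and 1 each at the other 3, and none at Igf2r, the receptor that clears insulin-like growth factor 2. In these 8 windows the SD between interior positions was 4.13 to 10.7 points, and 81.2 to 100% of interior positions were at 30 to 70%. Of the other 141 windows, 17 had an SD of 10.7 points or less, and the median SD of the 141 was 16.45. These 141 can include windows at listed genes that were not placed, such as the Commd1 window that hosts Zrsr1. The promoters placed for these genes differed. In the UUO sham the interior positions of the placed Gnas promoter stood at 3.36% and those of the Grb10 promoter at 1.41%, whereas the Mcts2 promoter stood at 48.88% and the Plagl1 promoter at 29.6%. Other windows with no placed start of the list within 50000 bp were just as even. Listed genes that could not be placed may lie near them. On chromosome 15 (72640001 to 72641000) 11 interior positions had a median of 39.67% and an SD of 3.98 points, and on chromosome 19 (7496001 to 7497000) 12 interior positions had a median of 55.41% and an SD of 7.35 points.

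**Figure D2:**
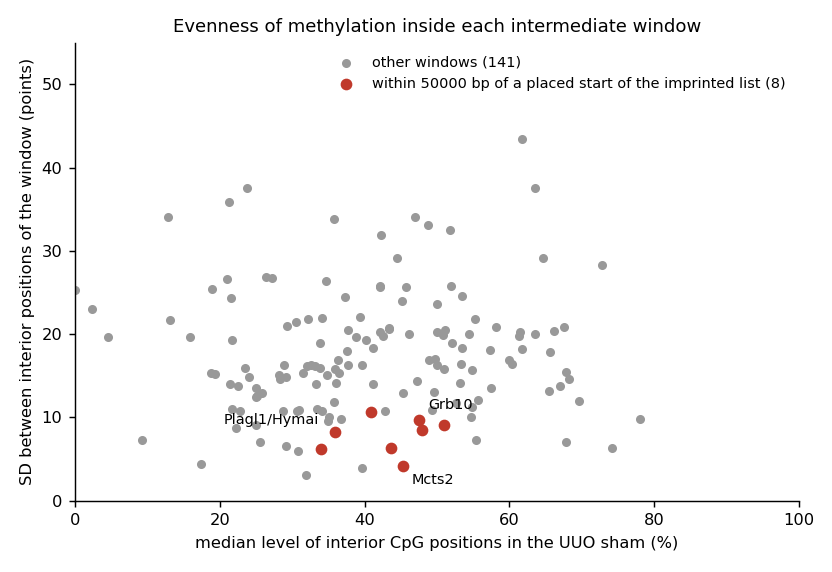
Median methylation level (%) of the interior CpG positions of each intermediate window in the UUO sham against the SD (points) between those positions, with 1 point per window and 149 windows. The 8 windows within 50000 bp of a placed start of the imprinted list have SDs of 4.13 to 10.7 points, and the other 141 have a median SD of 16.45. The 141 can include windows at listed genes that were not placed.

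The intermediate windows seldom coincided with placed promoters. A promoter overlapped 11 of the 150 (7.3%), against 39.6% of the 10944 CpG-dense windows below 30% and 4.3% of the 186 above 70%. Besides Mcts2, Plagl1 with its neighbour Hymai, Commd1 and Gm13205, these were Boll, a germ-cell RNA-binding protein, Prkcz, an atypical protein kinase C, Tmem267 with 3110070M22Rik, and the predicted genes Gm35510, Gm24463, Gm40881 and Gm40862. A placed start lay within 5000 bp of 28 windows and within 50000 bp of 93. Starts whose promoter was not measured could not be placed, so nearer ones may exist. Placing a promoter needed at least 10 matching CG. The median number of positions was 34 in the windows below 30%, 24 in the 150 and 23 in those above 70%. The chance of holding a placed promoter may therefore differ between these sets for that reason.

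Along the genome, 16 windows each fell on chromosomes 2, 4 and 11 and none on chromosome 16. Chromosome 12 had the highest share among its CpG-dense windows, 2.71%, and 10 of its windows lay between 18142001 and 20822000. A group of 6 on chromosome 10 spanned 79198001 to 80796000, and the 5 at Gnas spanned 174110001 to 174155000 on chromosome 2. Pairs of adjoining windows were found 6 times, and no run was longer. The pair with most positions, 176, was on chromosome 15 from 100883001 to 100885000, followed by chromosome 2 from 174153001 to 174155000 and chromosome 12 from 19709001 to 19711000, with 59 each. The windows right beside the 150 that had at least 3 interior positions, 80 in number, had a median interior level of 31.8% in the UUO sham, with quartiles of 14.8 and 62.36%. Beside the dense windows below 30% that median was 1.82%, and beside those above 70% it was 88.06%.

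The mean level of the 150 windows differed little between libraries. It was 55.97 and 55.8% in the 2 UUO libraries, 54.34% in the UUO sham, 52.06 and 52.79% in UUO with 5AZA, 51.92% in the ischemia sham, 51.6% at 1 week and 53.21% at 1 month after ischemia. Both UUO libraries were the highest, the UUO sham was above both 5AZA libraries, and the 3 ischemia libraries lay in the range of the 5AZA libraries or within 1 point of it. The 2 sham libraries differed by 2.42 points, more than UUO did from its sham. The ischemia sham chose the windows, so its difference from the UUO sham carries that choice. Over all windows the 2 shams differed by 1.02 points and UUO from its sham by 0.84. Over interior positions all levels were lower and their order was similar, with 44.54 and 43.99% in UUO, 42.12% in its sham, 39.36 and 40.12% in UUO with 5AZA, and 39.42, 40.1 and 41.71% in the ischemia sham, at 1 week and at 1 month.

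**Figure D3:**
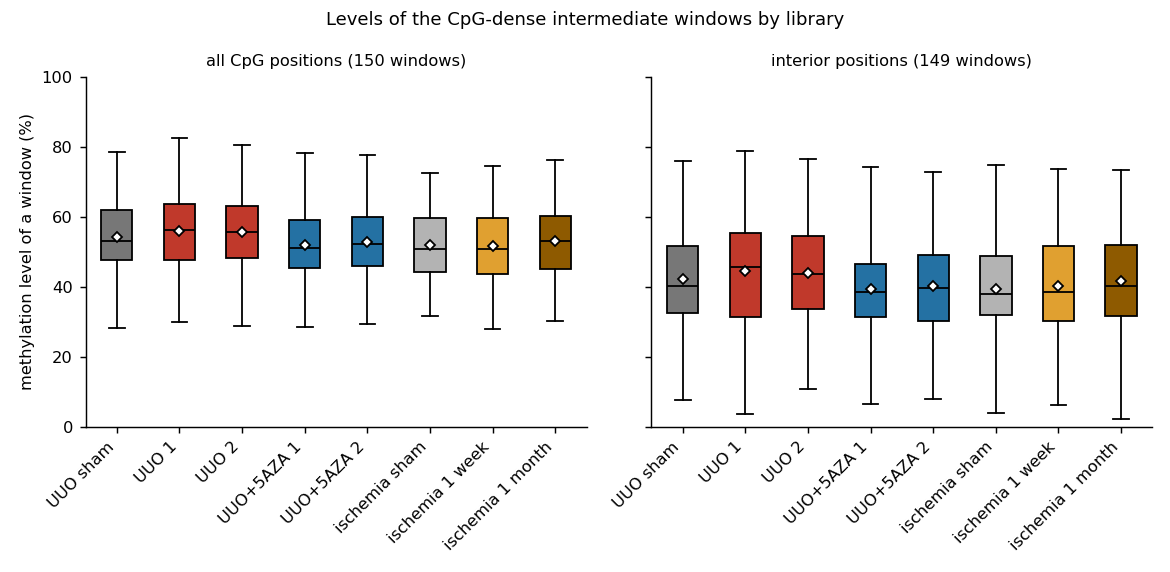
Methylation level (%) of the intermediate windows in each of the 8 libraries, over all CpG positions (left) and interior positions (right). Boxes span the quartiles with the median as a line, whiskers reach the lowest and highest window and diamonds are means, which run from 51.6% at 1 week of ischemia to 55.97% in the first UUO library on the left, and from 39.36 to 44.54% on the right.

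In obstructed kidneys, 2 windows rose against the UUO sham and 1 fell. The mean over the 150 was 55.88% ± 0.12 (SD, n = 2) in UUO and 54.34% in the sham, a difference of 1.55 points, or 2.15 over interior positions, and the median difference per window was 1.72 points. Over all 93730 windows the mean difference was 0.84 points, and over 9576 windows of the same 30 to 70% range but with 3 to 19 positions it was 3.25 points. A window was called when the adjusted p of the quasi-binomial model was below 0.05 and the group means differed by at least 10 points. Of the 150, 1.33% were called higher and 0.667% lower, and of all windows 0.016% and 0.00213%. All windows had a median of 264 reads per library and the windows of 3 to 19 positions 257, against 1515.5 in the 150. Of the windows of 3 to 19 positions 0.0104% were called. Both UUO libraries lay above the sham in 79 of the 150, where the share over all windows was 42.5%, and below it in 44, where it was 28.0%. Without the first UUO library 1 window was called, without the second 7, and without either 5AZA library 8.

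The largest called rise was on chromosome 5 (23988001 to 23989000), 30435 bp downstream of the start of Agap3, which encodes a GTPase-activating protein. This window of 28 positions stood at 72.95 and 68.95% in UUO, 52.49% in the UUO sham (95% interval 49.88 to 55.09%) and 60.16 and 61.71% in UUO with 5AZA. Neither pair overlapped the sham, and the difference of UUO from sham was 18.46 points (SE 2.03, adjusted p = 0.0238 by the quasi-binomial model with limma's moderated dispersion). Without the first UUO library it was 16.46 points and no longer called (adjusted p = 0.106), and the call was also lost with at least 20 reads per position. In the ischemia model it stood at 52.94% in the sham, 50.5% at 1 week and 65.16% at 1 month. The difference between both times, 14.66 points, was the largest rise among the 150 and was not called (adjusted p = 0.52).

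The other called rise was on chromosome 17 (29989001 to 29990000), 35388 bp downstream of the start of Mdga1, a cell-surface protein of neurons. Its level was 63.34 and 64.76% in UUO and 50.53% in the sham (95% interval 47.97 to 53.09%), a difference of 13.52 points (SE 1.7, adjusted p = 0.0452, quasi-binomial). The call was lost without the first UUO library (14.23 points, adjusted p = 0.151), without the second (12.81 points, adjusted p = 0.0828), with at least 20 reads per position and over interior positions. The fall was in the second window of the chromosome 15 pair (100884001 to 100885000, 83 positions), which stood at 58.31 and 58.27% in UUO against 68.7% in the sham (95% interval 67.36 to 70.02%), a difference of -10.41 points (SE 0.98, adjusted p = 0.0175). The adjoining window with 93 positions stood at 61.8 and 61.16% against 67.23% and was not called. In the same window of 83 positions the ischemia sham stood at 63.93%. Over interior positions 6 of 149 windows were called higher and 2 lower, where the shares over all windows were 0.236% and 0.0148%. Over all positions limma on log2 ratios and edgeR called none, with 10 and 59 windows at an unadjusted p below 0.05.

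In UUO with 5AZA, 14 windows fell against UUO and none rose. Of the 150, 9.33% were called lower, against 0.356% of all windows (0.00427% were called higher). Of the 9576 windows of 3 to 19 positions in the same range, 1.4% were called lower. Both of these larger sets had fewer reads, with medians of 264 and 257 per window and library against 1515.5 in the 150. The size of the fall did not follow the order of the shares called lower. The mean over the 150 was 52.43% ± 0.52 (SD, n = 2) with 5AZA and 55.88% ± 0.12 without, a difference of -3.46 points. It was -3.18 points over all windows and -5.12 points over the windows of 3 to 19 positions. Over interior positions it was -4.53 points in the 150 and -8.04 in the windows of 3 to 19 positions. The 2 pairs of library means did not overlap, and the exact two-sided permutation p of 0.33 is the smallest that 2 against 2 libraries can give. In 75 of the 150 windows the 5AZA pair lay wholly below the UUO pair, where the share over all windows was 49.2%, and in 12 wholly above it, where it was 5.61%. Without the first UUO library 6 windows were called lower. With edgeR 6 were called, and with limma on log2 ratios none, where 19 had an unadjusted p below 0.05.

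Of the 14 windows, 13 were also called over interior positions, where 20 of 149 fell and the share over all windows was 1.05%. The falls ranged from 10.02 to 15.62 points, with adjusted p of 0.00522 to 0.0457 in the quasi-binomial model. In 13 of the 14, both UUO libraries lay above the UUO sham, where the share over all windows was 42.5%. In 9 the 5AZA pair lay wholly below the sham, where that share was 55.5%. The median of the 14 was 64.23% in UUO, 53.5% in the sham and 51.39% with 5AZA. These windows were chosen for a high level in UUO against 5AZA, so their place relative to the sham is a description.

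The largest fall was on chromosome 1 (94773001 to 94774000), 33705 bp downstream of the start of 5033417F24Rik. Its levels were 74.18 and 78.68% in UUO, 61.96 and 59.67% with 5AZA and 67.77% in the sham, a difference of -15.62 points between the pairs (SE 1.66, adjusted p = 0.0124). The window near Mdga1 on chromosome 17, which rose in UUO, stood at 47.95 and 49.0% with 5AZA, which was -15.57 points relative to UUO (SE 1.56, adjusted p = 0.00961). In these 2 windows the sham was above both 5AZA libraries. On chromosome 4 (139521001 to 139522000), with no placed start within 50000 bp, the levels were 68.83 and 63.95% in UUO, 48.82 and 54.15% with 5AZA and 50.62% in the sham. Here the sham lay between the 5AZA libraries. Without the first UUO library the difference of 5AZA from UUO was -12.46 points and not called (adjusted p = 0.137), and over its 5 interior positions it was -22.53 points (adjusted p = 0.0223).

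Next in size was a window on chromosome 11 (117750001 to 117751000), 39816 bp downstream of the start of Birc5, the inhibitor of apoptosis survivin, at 48.99 and 50.45% in UUO and 34.01 and 38.16% with 5AZA. Its call was lost without the first UUO library (-14.37 points, adjusted p = 0.127) and without the second (-12.9 points, adjusted p = 0.0881). A window on chromosome 15 (79659001 to 79660000), 5453 bp downstream of the start of Cbx6, a Polycomb chromobox protein, stood at 68.16 and 60.69% in UUO and 51.18 and 51.43% with 5AZA. The 2 UUO libraries differed by over 7 points there, and the call was lost without the first UUO library (-9.39 points) or the second 5AZA library (-13.24 points, adjusted p = 0.0552). A window on chromosome 19 (5696001 to 5697000), 7044 bp downstream of the start of Map3k11, the mixed-lineage kinase that feeds the JNK pathway, stood at 76.9 and 74.94% and at 65.45 and 60.91%. The difference was -12.79 points over its 15 interior positions and -12.74 points over all 23. This call too was lost without the first UUO library (-11.76 points, adjusted p = 0.107) or the second 5AZA library (-10.47 points, adjusted p = 0.0534).

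The remaining named falls were on chromosome 2 (151796001 to 151797000), from a mean of 63.7% to 51.19%, and on chromosome 10 (80795001 to 80796000), 11570 bp downstream of the start of Cactin, from 63.0 to 50.9%. Without the first UUO library they differed by -12.96 and -11.21 points and were not called (adjusted p = 0.0781 and 0.135), and without the first 5AZA library the chromosome 10 window differed by -9.1 points. With at least 20 reads per position the difference of the chromosome 2 window was -6.61 points and not called (adjusted p = 0.109). All 8 named falls were lost with limma on log2 ratios, which called none of the 150, and 6 were lost without the first UUO library. The smallest adjusted p of the set, 0.00522, belonged to the window of the Gm13205 promoter (148326001 to 148327000 on chromosome 4, 57 positions). It stood at 59.69 and 57.87% in UUO, 48.06 and 45.8% with 5AZA and 49.05% in the sham, a difference of -11.85 points (SE 1.08), and was named after its values were seen.

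**Figure D4:**
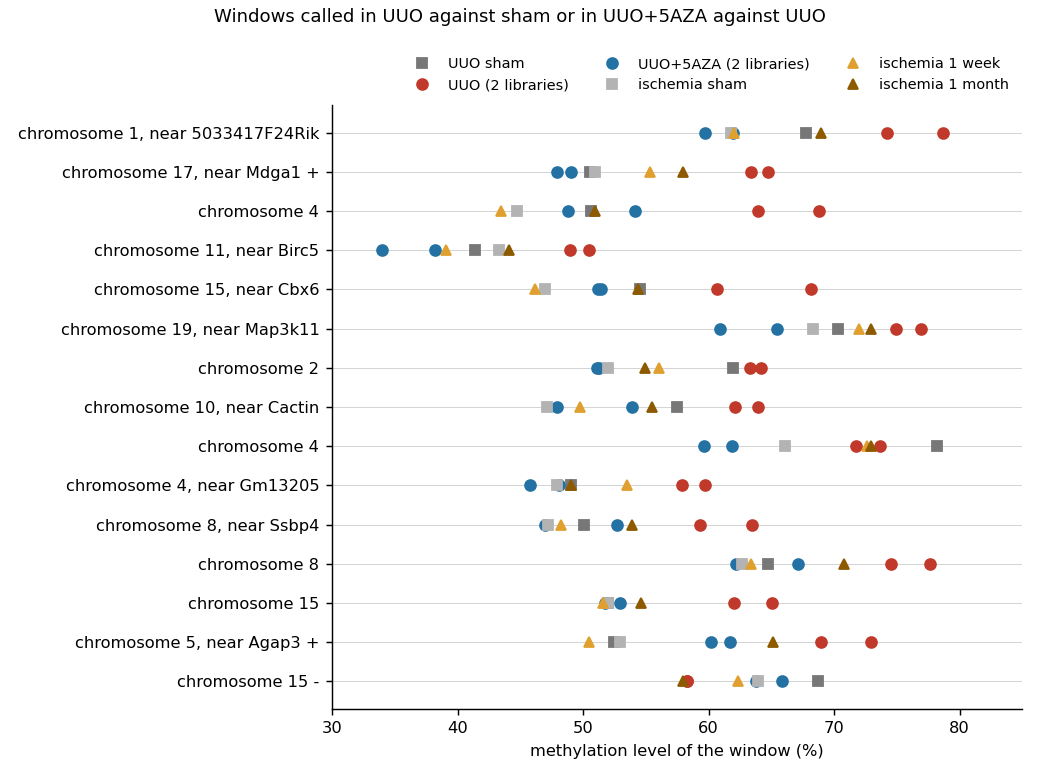
Methylation level (%) in each of the 8 libraries for the 15 windows called in UUO against UUO sham (marked + or - after the name) or in UUO with 5AZA against UUO, ordered by the second difference. Placed gene starts within 50000 bp are named. In all but the lowest row the 2 UUO libraries (red) lie above the 2 5AZA libraries (blue), and in the lowest row, the window on chromosome 15 at 58.31 and 58.27% in UUO, they lie below.

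None of the 8 windows near placed starts of the imprinted list was called over all positions in any of the 4 comparisons. The Mcts2 window stood at 60.33 and 61.9% in UUO, 54.84% in the sham and 53.24 and 53.87% with 5AZA. Its difference of 5AZA from UUO, -7.57 points (SE 1.28, adjusted p = 0.0415, quasi-binomial), passed the p threshold and not the 10 points. Inside it, the 4 CpG positions 217 to 178 bases before the start averaged 48.3 and 53.93% in UUO, 44.22% in the sham and 50.17 and 48.2% with 5AZA, whereas the 6 positions 89 to 7 bases before the start averaged 64.03 and 56.12% in UUO, 51.97% in the sham and 37.58 and 39.57% with 5AZA. In the first stretch the UUO and 5AZA pairs overlapped and the sham was below both, and in the second the pairs were apart and the sham lay between them. CCGG sites lie between the stretches in the printed sequence, and those whose CG is in capitals were measured. The CpG positions of a stretch share reads, and the division into stretches was made after the data were seen.

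The window nearest to Gnas (174154001 to 174155000, 1264 bp upstream of the start) stood at 48.06 and 45.63% in UUO, 42.83% in the sham and 37.81 and 39.14% with 5AZA, a difference of -8.37 points between the pairs (SE 1.27, adjusted p = 0.0395). In the other 4 windows at Gnas that difference ranged from -8.04 to -1.6 points. The Plagl1 window stood at 47.53 and 48.09% in UUO and at 43.86 and 53.49% with 5AZA, which overlapped. The Grb10 window stood at 55.06 and 57.65% in UUO, 57.54% in the sham and 50.07 and 52.17% with 5AZA. The 5AZA libraries were lower than both UUO libraries in 5 of the 8 windows, where the share over all windows was 49.2%, and the median difference was -5.29 points. In the Commd1 window, 15 interior positions fell by 13.21 points (adjusted p = 0.0114), while over all 33 positions the difference was -6.34 points (adjusted p = 0.0534). The interior difference passed both thresholds of a call. Zrsr1 stands on the imprinted list, but no promoter of its own was placed, so this window is not among the 8. At none of the interior positions in the printed Commd1 promoter did both 5AZA libraries lie below both UUO libraries. At 4 bases before the start, UUO stood at 50.3 and 47.4% and UUO with 5AZA at 39.8 and 53.4%.

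**Figure D5:**
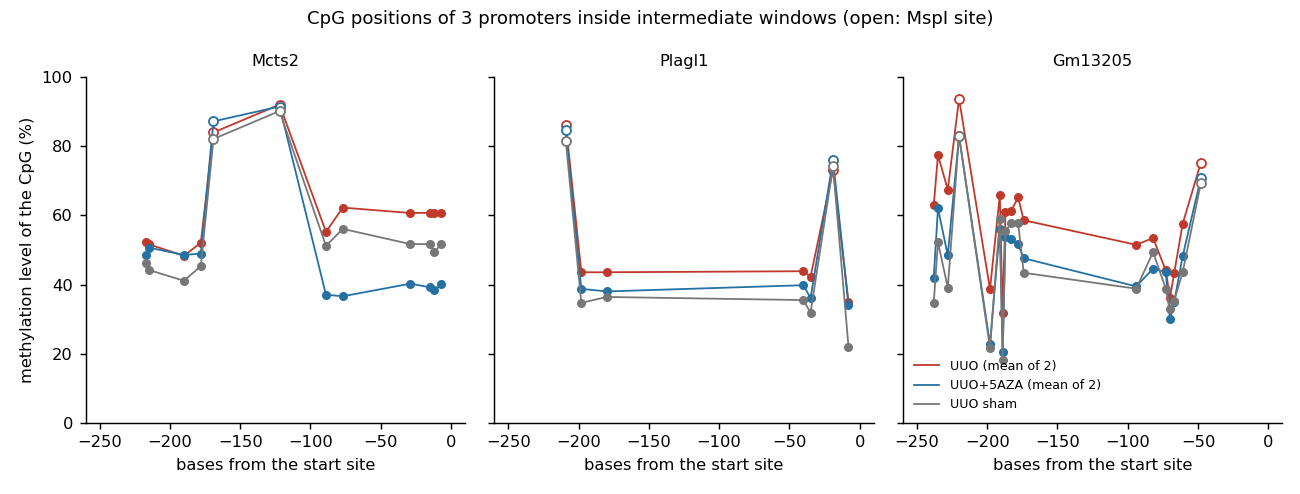
Methylation level (%) of each measured CpG against its distance in bases from the start site, for the Mcts2, Plagl1 and Gm13205 promoters, as the mean of 2 UUO libraries, the mean of 2 UUO with 5AZA libraries and the single UUO sham library. Open circles are CG inside CCGG, which stand higher than most of their neighbours, and from 89 bases before the Mcts2 start onward the 5AZA line lies below the sham line.

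Against the UUO sham, 1 window fell in UUO with 5AZA, 0.667% of the 150 against 0.00213% of all windows, which had fewer reads. It was on chromosome 4 (146593001 to 146594000), with no placed start within 50000 bp and 113.1 reads per position, above the median of 59.5 in the set. Its level was 78.16% in the sham (95% interval 76.32 to 79.93%), 73.65 and 71.72% in UUO and 59.63 and 61.89% with 5AZA, a difference from the sham of -17.4 points (SE 1.5, adjusted p = 0.00744). With an upper limit on depth the difference was -12.28 points and not called (adjusted p = 0.319). The mean difference of 5AZA from the sham was -1.91 points in the 150 and -2.34 points over all windows. The 5AZA pair lay wholly below the sham in 72 of the 150 and above it in 32, where the shares over all windows were 55.5 and 17.6%. These comparisons share the UUO sham, UUO or 5AZA libraries with those above.

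Between 1 month and 1 week after ischemia no window was called, as over all windows, where 0.0% of 93730 were called. Of the 150, 45 had an unadjusted p below 0.05 in the quasi-binomial model, 32 in edgeR and 5 in limma. The mean difference was 1.61 points, 0.62 over all windows and 1.74 over the windows of 3 to 19 positions, with 94 windows higher at 1 month and 56 lower, where 52939 of all 93730 windows were higher and 40677 lower. After the rise near Agap3, the most extreme values were a fall on chromosome 2 (119148001 to 119149000) from 51.71% at 1 week to 37.53% at 1 month, where the sham stood at 43.58%, and a rise on chromosome 8 (87230001 to 87231000) from 27.97 to 41.92%, where it stood at 38.5%. Both were named after their values were seen. Beside the ischemia sham, the mean was 0.32 points lower at 1 week and 1.29 points higher at 1 month. Both ischemia libraries lay below both UUO libraries in 67 of the 150 windows, and over all windows the share was 44.5%. The 8 windows near placed starts of the imprinted list all had this order. Model and library cannot be told apart there, since each ischemia group is 1 library.

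Over the 7 libraries that did not choose the windows, the range between the lowest and the highest library was 3.79 to 25.4 points per window, with a median of 10.44. In the dense windows below 30% that median was 3.11 points and in those above 70% it was 5.52. The 4 steadiest windows were on chromosome 12 (18859001 to 18860000, 32.5 to 36.3%), chromosome 11 (96125001 to 96126000, 54.42 to 58.54%), chromosome 10 (80702001 to 80703000, 51.12 to 55.88%) and chromosome 7 (69522001 to 69523000, 57.6 to 62.46%). The 4 least steady were the chromosome 4 window at 139521001 described above, chromosome 15 (76555001 to 76556000), chromosome 1 (36326001 to 36327000) and chromosome 12 (19709001 to 19710000). In 3 of these the libraries of 1 group were far apart. The chromosome 15 window stood at 34.09 and 55.39% in the 5AZA pair, the chromosome 12 window at 75.47 and 53.01% in the same pair, and the chromosome 1 window at 76.15 and 60.95% in the UUO pair. None of these 3 was called over all positions. Over interior positions the chromosome 1 window was called lower with 5AZA against UUO (-17.31 points, adjusted p = 0.0321, quasi-binomial). There the UUO pair stood at 73.45 and 54.65% and the 5AZA pair at 45.24 and 48.23%. Of the windows with most positions, that on chromosome 5 (144016001 to 144017000, 72 positions), 15121 bp downstream of the start of Zfp316, ranged from 60.65 to 66.21% over the 7 libraries.

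At the lower end of the rule, the 3 windows just inside had medians of 30.0, 30.43 and 30.56% in the ischemia sham and the 3 just outside 29.86, 29.84 and 29.75%. At the upper end the 3 inside had 70, 70 and 69.22% and the 3 outside 70.89, 71.8 and 72.0%. The window at 5696001 on chromosome 19 near Map3k11, named above, was 1 of those at 70%. In the UUO sham the windows just inside the lower end stood at 34.94 to 42.04% and those just outside at 42.23 to 44.39%, so the lower boundary divides windows of similar level. At the upper end those just inside stood at 60.85 to 70.28% and those just outside at 71.82 to 73.8%.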

How the data were processed

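RRBS libraries of 8 kidney samples were analysed, grouped by the sample titles. For each CpG position the deposited tables give a count of covering reads and a count of methylated reads, not normalized, and the methylation level as a fraction, which equalled their ratio. The submitters' processing notes name Bowtie and mm9, with no version, and no caller or filter is named there or in the labels.

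Positions with at least 10 reads in all 8 libraries (976938) were joined in Python 3.11.15 (pandas 2.3.3, numpy 2.4.6), and reads were summed per 1000 bp window and library. A window level is methylated over all reads summed over its positions, and a group value is the mean of its libraries. A quasi-binomial model with 1 mean per group was fitted to 93730 windows of at least 3 positions on chromosomes 1 to 19, X and Y, over all 8 libraries. Its Pearson dispersion was moderated with limma 3.58.1 in R 4.3.3 and held at 1 or above, tested two-sided by quasi-deviance F test and adjusted by Benjamini-Hochberg over all windows. The 2 residual degrees of freedom come from the 2 pairs, single libraries being assumed to vary like them. The prior dispersion was 1.36 with 8.47 prior degrees of freedom. A call needed an adjusted p below 0.05 and 10 points. The permutation test used scipy 1.17.1. Reads covering several CpG positions are counted at each, and PCR copies are not told apart.

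No label says whether the libraries of a pair are separate animals, so p-values measure only the spread between these libraries, which may be technical. A chi-square test of the counts gave 1.23 per position within the UUO pair and 1.18 within the 5AZA pair, above counting noise, so both were kept as 2 samples. The windows and lists were chosen with earlier results of these data known. Named windows are up to 8 largest rises and falls per comparison among windows called and moved alike in every pair of libraries, the 4 with the largest share of positions at 30 to 70% in the UUO sham, the 4 with most positions, the 4 least and 4 most variable, 3 on either side of each threshold, and the 3 runs with most positions. The annotation at hand was of another build, so RefSeq promoter sequences (GRCm38.p6) were placed by the spacing of their CG dinucleotides, which was decided after seeing the data. All measured positions had to fall on a CG of the sequence, at least 10 had to match, and only 1 place in the genome could qualify. Of 6140 such places 6137 lay on the chromosome that RefSeq names, and they cover 5528 genes. No promoter sequence for chromosome 18 was used, and its 2 windows are not named. Alternatives were other read minimums, a limit on depth, fragment edges left out, other ways to choose the windows, smaller and larger minimum differences, edgeR 4.0.16 on methylated and unmethylated counts, limma on log2 ratios (pseudocount 1), other sets of libraries and a replicate block.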

Additional observations from a re-analysis of the deposited data

How the results depend on the processing

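The count of 3 windows called in UUO against sham depended on the setting. A minimum of 20 reads per position gave 1, as did the choice of windows of 30 or more positions. It was 8 with fragment edges left out, with only the 2 groups in the model and with windows chosen by pooled reads, and 0 with limma, edgeR or a minimum of 20 points. With both shams as 1 group it was 14, a value that draws on the ischemia sham, which chose the windows, and is no independent check. Leaving out 1 library gave 1 to 8, with 1 without the first UUO library and 8 without either 5AZA library. The 14 called in UUO with 5AZA against UUO became 0 with limma or a minimum of 20 points, 6 with edgeR and 3 with windows of 30 or more positions, and ranged from 6 (without the first UUO library) to 18 when 1 library was left out, where 1 rise was called without either 5AZA library. Of the 14, 13 were shared with the 20 called over interior positions. The single window against the sham became 0 with a limit on depth, limma, a minimum of 20 points or windows of 30 or more positions, and 1 to 2 without 1 library. No setting called a window between 1 month and 1 week after ischemia. The libraries of UUO and of UUO with 5AZA share only a number: over 93730 windows the differences within the pairs correlated at 0.07, and over the 150 at 0.2, from 2 pairs, and a replicate block called 18 windows.

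No mean difference changed sign. The rise in UUO of 1.55 points became 2.15 without fragment edges, 1.94 with windows chosen by the ischemia 1 week library and 1.68 with pooled reads, and 1.46 to 1.64 without 1 library. The fall with 5AZA of -3.46 points became -4.53 without fragment edges, -2.64 with windows of 30 or more positions and -2.51 with windows chosen by pooled reads, and lay between -3.82 and -3.09 without 1 library. Against the sham, -1.91 points became -1.21 and -1.04 in the last 2 settings and lay between -2.27 and -1.54 without 1 library. The 1.61 points between 1 month and 1 week became 2.04 and 1.12 there. The share of positions at 30 to 70% was 56.2% over interior positions. Restricting the set to 105 windows at 30 to 70% over interior positions, added after seeing the data, gave 2, 10, 1 and 0 calls in the 4 comparisons. Of 130 repeats of the 12 named differences, 92 stayed called, 38 did not and none reversed. Each unreplicated group limits these results, and depth limits the windows of few reads.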
